A study of Mus musculus with 4 samples.

Results

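The Hes and Hey genes encode basic helix-loop-helix (bHLH) transcriptional repressors with an Orange domain, and they are the family most often used to read Notch activity. The members were taken by gene symbol (Hes1, Hes2, Hes3, Hes5, Hes6, Hes7, Hey1, Hey2 and Heyl). No measured value entered this rule, but the members were chosen with earlier results of these data known. All 9 symbols were found among the 24391 genes of the count table. Only 4 of them (Hes1, Hes6, Hey1 and Heyl) had enough reads to be tested, out of 12266 genes tested in all.

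The libraries came from Beko cells, a mouse pre-T cell line in which the Notch pathway is constitutively active. Total RNA was depleted of ribosomal RNA and sequenced with a stranded kit. All 4 libraries came from cells kept for 48 h in DAPT, a γ-secretase inhibitor (GSI) that keeps the intracellular domain of Notch (NICD) from being cut free, and the inhibitor was renewed at 24 h. The 2 GSI libraries were taken at the end of the 48 h. The 2 washout libraries were taken after the inhibitor had been washed away and the cells had been cultured for another 24 h. The dose was given as 10 mg/ml in the library labels and as 10 µg/ml in the methods of the study. Beko is a single line, and nothing states that the libraries of a condition came from separate cultures, so p-values measure the spread between these libraries, which may be technical. The comparison asks which family members respond when the block of Notch signalling is lifted. No library of cells that were washed and kept in GSI was analysed here, so the return of Notch activity, the second wash and the longer culture cannot be told apart.

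Upon release, NICD joins the DNA-binding protein RBPJ at its target genes, and Hes1, Hes5, Hey1, Hey2 and Heyl are the textbook direct targets of this complex. Hes proteins bind N boxes and related E boxes and recruit Groucho (TLE) corepressors through a short WRPW motif at their C terminus, whereas Hey proteins prefer the E box and lack a typical WRPW motif. In developing T cells Hes1 is known as a Notch target that supports progenitors and Notch-driven leukaemia, while Hes5, Hes3 and Hes7 are best known from neural progenitors and from the segmentation clock of the embryo. Hes6 stands apart, since it is known to oppose Hes1 and is usually not induced by Notch.

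Upon washout, Hey1, Heyl and Hes1 rose, Hes6 did not pass both thresholds, and the other 5 members stayed close to 0 reads in every library. Hey1 had the largest change, with a mean of 17.1 CPM (read counts relative to the TMM-scaled library total) in GSI and of 189.8 CPM after washout. Of the 4 members tested, 3 were higher past both thresholds (adjusted p under 0.05 and a log2 fold change above 1) and 0 were lower, whereas 7.74% of all genes tested were higher and 11.7% were lower. These calls rest on the quasi-likelihood test of edgeR, with p-values adjusted over all genes tested by the Benjamini-Hochberg method. By the adjusted p alone all 4 members were called, with Hes6 lower, beside 52.5% of all genes, so that a call by p alone sets the members little apart from the rest of the table. The call of Hes1 past both thresholds was lost in DESeq2 (adjusted p = 0.0732), the tool named in the study's methods. It was also lost without the second GSI library (log2 fold change 0.92). Because these are bulk samples, fewer cells that use a gene and less RNA per cell cannot be told apart.

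Promoter sequences of members are shown first, because several members are known as direct RBPJ targets and the members differed widely in reads. The RefSeq table (GRCm38.p6), which spans 250 bases before to 50 bases after a start site, held 5 windows of 4 members, namely Hes5, Hes6 (2 starts), Hes7 and Hey2. Hes1, Hes2, Hes3, Hey1 and Heyl had no entry. Each window was placed on mm9 by its only exact match. The windows printed are those of Hes5, a Notch target elsewhere with at most 4 reads per library here, of Hey2, which had 0 reads, and of the first start of Hes6, the member with the most reads in GSI. Starts were numbered by chromosome position, so the first start of Hes6, a gene on the minus strand, lies downstream of its second start. Capitals mark RBPJ motifs, searched on both strands as the canonical TGGGAA, as the variant TGAGAA with a second purine in its middle, and as the weaker variant TGTGAA. The opposite strand of the canonical motif reads TTCCCA. These 3 motifs do not overlap one another in the windows.
Hes5, mm9 chr4:154334782-154335081, plus strand: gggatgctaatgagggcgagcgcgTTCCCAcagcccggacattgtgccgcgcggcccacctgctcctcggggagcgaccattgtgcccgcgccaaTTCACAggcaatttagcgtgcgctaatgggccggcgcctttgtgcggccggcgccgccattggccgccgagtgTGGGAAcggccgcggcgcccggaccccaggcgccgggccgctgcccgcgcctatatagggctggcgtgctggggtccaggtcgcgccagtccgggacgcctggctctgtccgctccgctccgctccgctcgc
Hey2, mm9 chr10:30562540-30562839, minus strand: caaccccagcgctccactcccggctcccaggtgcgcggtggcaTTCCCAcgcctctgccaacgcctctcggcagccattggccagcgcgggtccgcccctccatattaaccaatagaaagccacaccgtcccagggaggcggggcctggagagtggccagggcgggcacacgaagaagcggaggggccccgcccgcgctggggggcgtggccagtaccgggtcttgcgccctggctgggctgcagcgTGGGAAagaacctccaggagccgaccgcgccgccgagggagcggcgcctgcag
Hes6, first start, mm9 chr1:93309750-93310049, minus strand: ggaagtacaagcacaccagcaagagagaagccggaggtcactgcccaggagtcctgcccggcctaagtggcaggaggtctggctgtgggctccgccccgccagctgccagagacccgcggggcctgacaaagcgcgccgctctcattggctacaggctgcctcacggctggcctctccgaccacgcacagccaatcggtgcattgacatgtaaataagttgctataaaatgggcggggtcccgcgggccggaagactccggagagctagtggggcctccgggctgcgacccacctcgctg

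The Hes5 window held 2 copies of TGGGAA, beginning at -226 and -82 from the start site, and 1 copy of TGTGAA at -155. The Hey2 window held 2 copies of TGGGAA, at -207 and -3. Both Hes6 windows held none of the 3 motifs, whereas the Hes7 window held a TGGGAA at -180 and a TGAGAA at 41. For comparison, 48.5% of 32544 windows of the same length held at least 1 of the 3 motifs, and 25.4% held TGGGAA. The CACNAG letters of the N box occurred at -237 and 15 in the first Hes6 window and at -116 in that of Hes7, and in 42.6% of all windows. The E box CACGTG was in none of the 5 member windows and in 7.17% of all windows. The windows of Hes5 and Hey2 were rich in G and C (72.7% and 72%, against a median of 53.0% over all windows). These matches describe letters in short windows and do not show binding.

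Hey1 encodes a Hey repressor that is a direct Notch target in many tissues. It lies on the minus strand of mm9 chromosome 3 from 8663362 to 8667039, with no other annotated gene over it. Its reads numbered 518 and 264 in the GSI libraries and 6123 and 2684 in the washout libraries. In CPM these were 16.2 and 18.1 in GSI and 179.9 and 199.7 after washout. Both washout libraries thus lay far above both GSI libraries, and the replicates of each condition were close (17.1 ± 1.35 against 189.8 ± 14.0 CPM, mean ± SD, n = 2 each). The log2 fold change was 3.47 (SE 0.117) with an adjusted p of 0.000281 by edgeR's quasi-likelihood test. Only 15 of the 12266 genes tested had a larger rise.

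Heyl, the third Hey gene and also a known Notch target, lies on the plus strand of chromosome 4 from 122910799 to 122927118. It had 111 and 57 reads in GSI and 568 and 284 after washout, that is 3.47 and 3.91 CPM against 16.7 and 21.1 CPM. The conditions did not overlap (3.69 ± 0.309 against 18.9 ± 3.14 CPM, SD, n = 2 each). Heyl rose by 2.36 on the log2 scale (SE 0.200, adjusted p = 0.000458 by edgeR's quasi-likelihood test), the 54th largest rise in the table. Its GSI values rest on the fewest reads of the 4 members tested.

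Hes1, the best studied Notch target of the T-cell lineage, lies on the plus strand of chromosome 16 from 30064470 to 30067882. Its reads numbered 699 and 112 in GSI and 1485 and 510 after washout. This corresponds to 21.8 and 7.68 CPM in GSI and to 43.6 and 37.9 CPM after washout. The conditions did not overlap, but the GSI replicates lay far apart while the washout replicates were close (14.8 ± 10.0 against 40.8 ± 4.02 CPM, SD, n = 2 each). Hes1 rose by 1.42 on the log2 scale (SE 0.411, adjusted p = 0.0282 by edgeR's quasi-likelihood test), which placed it at rank 341 by rise. The call rested on the second GSI library. Without it the log2 fold change was 0.92, below the threshold of 1 (adjusted p = 0.00702), and it was 2.41 without the first GSI library. With all libraries in DESeq2 it was 1.48 with an adjusted p of 0.0732.

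The gap between the GSI replicates of Hes1 was itself uncommon. It was 1.5 on the log2 scale, with replicate 1 higher, and only 79 of 12266 genes (0.644%) had a gap at least as wide. Among the 3915 genes within 1 log2 CPM of the level of Hes1, 5 had such a gap (0.128%), namely Hes1, Cilp, Mir684-1, Snora24 and Snord47, which were named after their values were seen. Snora24 was the only one of these with the higher value in replicate 2. In the washout libraries the gap of Hes1 was 0.20, and the gaps of Hey1, Heyl and Hes6 were between -0.34 and 0.023 in both conditions. The source of the wide spread of Hes1 was not tested.

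Hes6, the member known to oppose Hes1, lies on the minus strand of chromosome 1 from 93308060 to 93310615. It had 3661 and 1725 reads in GSI and 3262 and 1268 after washout, or 114.4 and 118.2 CPM against 95.8 and 94.4 CPM. Both washout values were below both GSI values (116.3 ± 2.69 against 95.1 ± 1.05 CPM, SD, n = 2 each). The log2 fold change was -0.29 (SE 0.0870, adjusted p = 0.0317 by edgeR's quasi-likelihood test), far from the threshold of 1 in size, and it was 0.064 when GC content and exon length were modelled (adjusted p = 0.541). The exons of Hes6 are 62.3% G and C, compared with 50.2% for Hey1, 52.4% for Hes1 and 55% for Heyl.

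**Figure D1:**
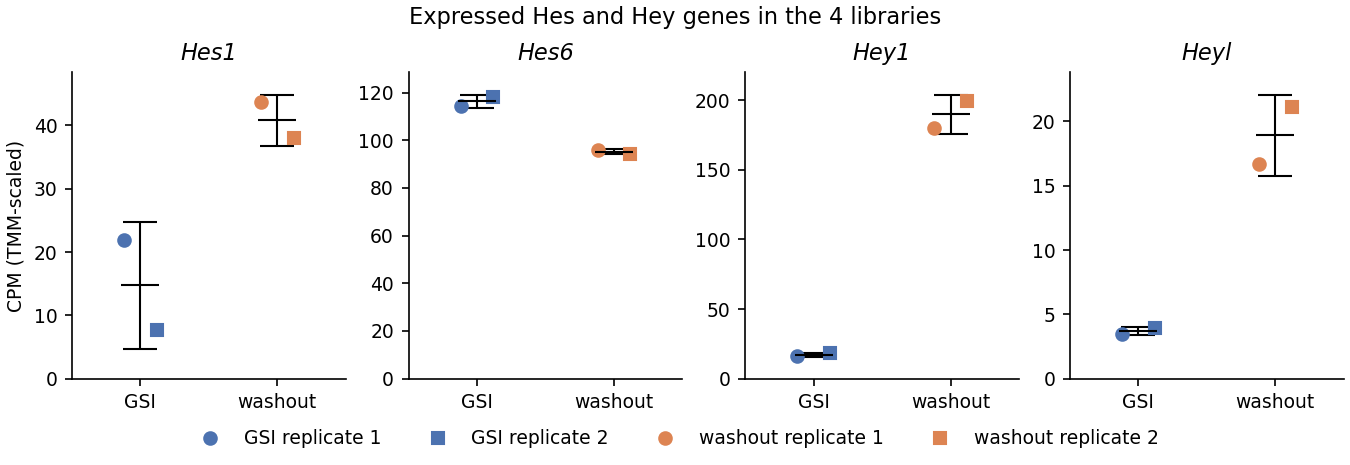
Level of each tested Hes and Hey gene in CPM (TMM-scaled, linear axes that start at 0) in the GSI and washout libraries, with circles for replicate 1, squares for replicate 2, and the mean ± SD of 2 libraries in black. Hey1 and Heyl separate widely between conditions, the GSI replicates of Hes1 stand apart at 21.8 and 7.68 CPM, and Hes6 lies slightly lower after washout, a direction that flips when GC content and exon length are modelled.

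The remaining 5 members were counted but not tested, since their reads were too few. Hes2 had 3 reads in the first GSI library and 0 in the other 3 libraries. Hes3, known from the neuroepithelium, had 0 and 1 reads in GSI and 3 and 1 after washout. Hes5, a main Notch effector of neural progenitors, had 4 and 3 reads in GSI and 2 and 1 after washout. Hes7, an oscillating gene of the segmentation clock, had 5 and 3 reads in GSI and 0 in both washout libraries. Hey2, known from the developing heart and vessels, had 0 reads in all 4 libraries.

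Summed over these 5 members, the reads numbered 12 and 7 in GSI and 5 and 2 after washout. A count of 0 allows up to 3 counts, or 0.0938 and 0.206 CPM in the GSI libraries and 0.0881 and 0.223 CPM in the washout libraries, counting error only. After washout neither Hes5 (2 and 1 reads) nor Hey2 (0 reads) lay above 3 counts, and a rise within this limit could not have been detected. In an edgeR fit without the filter the smallest adjusted p among them was 0.0637, for Hes7. No fold is given, since nearly all values lie at or under the limit of 3 counts. Hes5 and Hes7 are each overlapped by a transcript on the opposite strand (RP24-89N4.5 and 9130213A22Rik), and the sources used here do not give the strand setting of the counting.

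To compare members with one another, CPM was divided by the exon length (1808 bp for Hes6, 2037 bp for Hes1, 2203 bp for Hey1 and 5113 bp for Heyl). On this per-length scale the level of Hes6 was 63.3 and 65.4 CPM per kb in GSI and 53.0 and 52.2 after washout. Hey1 changed from 7.35 and 8.21 to 81.7 and 90.7 CPM per kb, and Hes1 from 10.7 and 3.77 to 21.4 and 18.6. Heyl stayed the lowest of the 4, at 0.679 and 0.764 in GSI and 3.26 and 4.13 CPM per kb after washout. In GSI the order was thus Hes6 far above Hey1 and Hes1, which could not be ordered because Hes1 lay above Hey1 in 1 replicate and below it in the other, and Heyl last. After washout the order was Hey1, Hes6, Hes1 and Heyl in both libraries.

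The make-up of the family therefore turned over. Hes6 gave 76.9% and 83.4% of the summed per-length level in the GSI libraries and 33.3% and 31.5% in the washout libraries. The share of Hey1 went from 8.94% and 10.5% to 51.2% and 54.7%. The share of Hes1 was 13.0% and 4.80% in GSI and 13.4% and 11.2% after washout, ranges that overlap. Heyl held at most 2.49%, and the 5 members with few reads together held a negligible part. These shares do not depend on how libraries are scaled, but they carry no correction for GC content. They also rest on the exon lengths used, which came from GENCODE vM1, whereas the reads were counted over iGenomes gene models. With GC content and exon length modelled, the log2 fold change of Hes6 was 0.064 instead of -0.29, and that of Hey1 was 3.46.

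The summed level was 82.3 and 78.4 CPM per kb in GSI and 159.4 and 165.7 after washout, a 2.02-fold difference of the means, or 1.76-fold when libraries were scaled by their total count. The log2 ratio of Hey1 to Hes6, which needs no scaling either, was -3.11 and -2.99 in GSI and 0.62 and 0.80 after washout. The log2 ratio of Heyl to Hey1 was -3.44 and -3.43 in GSI and -4.65 and -4.46 after washout, so that the Heyl level rose less than that of Hey1 in each library. Among all genes with an exon length, the level of Hey1 lay at percentiles 69.0 and 70.7 in GSI and 96.0 and 96.4 after washout. Hes6 lay at percentiles 96.1 and 96.2 in GSI and 93.4 and 93.5 after washout.

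**Figure D2:**
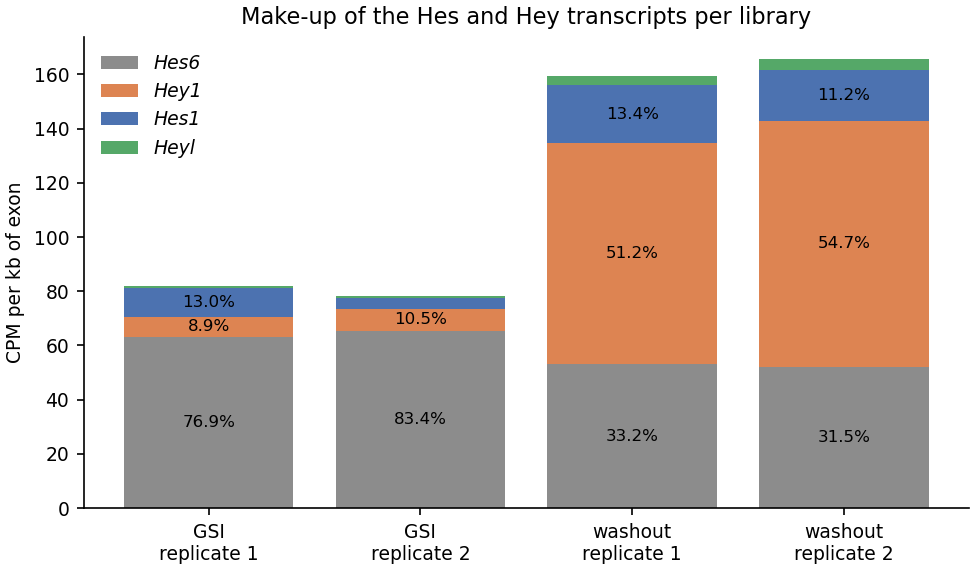
Stacked bars of the level of Hes6, Hey1, Hes1 and Heyl in CPM per kb of exon in each of the 4 libraries (linear axis from 0), with the percent share of the summed family level written in the larger segments. Hes6 makes up 76.9% and 83.4% of the bar in the GSI libraries, and Hey1 makes up 51.2% and 54.7% in the washout libraries.

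Total counts ranged from 13716199 to 36364200 per library, and in both conditions replicate 2 was the shallower. Of all genes tested, 950 were higher and 1437 lower past both thresholds, so 39.8% of the calls were higher. With scaling by total count 586 were higher and 1963 lower (23.0% higher), and the median log2 fold change of all genes moved to -0.21 from -0.0096. On that scale Hey1 was still higher by 3.27, Heyl by 2.16 and Hes1 by 1.22, all past both thresholds, and Hes6 was at -0.49. All 11 markers of T-cell progenitors were tested, with summed levels of 8022 and 7874 CPM in GSI and 7187 and 6625 CPM after washout. These sums are carried by abundant genes, and single markers moved both ways. Ptcra, the pre-T cell receptor α chain gene, rose by 2.37 (47.1 and 54.4 to 248.6 and 275.8 CPM), and Gata3, a T-cell transcription factor gene, fell by 1.67 (262.0 and 208.2 to 75.8 and 71.7 CPM), while the other 9 did not pass both thresholds. Since Hes and Hey genes are also used by endothelial and neural cells, their markers were read as well. Cdh5, Kdr, Tek and Sox2 had at most 1 read in any library, whereas Pecam1 went from 221.2 and 173.8 to 67.1 and 64.4 CPM. Of 4 mast cell markers, Cpa3 and Kit were detected (274.5 and 166.7 CPM summed in GSI, 45.7 and 30.5 after washout), with Mcpt4 and Fcer1a at 0 reads in every library. The sum of 5 myeloid markers was 49.1 and 38.2 CPM in GSI and 5.49 and 4.91 CPM after washout. Itgam alone gave 48.7 and 37.9 CPM in GSI and 5.38 and 4.76 CPM after washout, Lyz2 and Elane had 0 reads, and Csf1r and Mpo had at most 7 reads in any library. The neural markers summed to 1.41 and 0.960 CPM in GSI and to 1.82 and 2.75 CPM after washout. Among them Nes had 2 and 1 reads in GSI and 16 and 15 after washout, too few to be tested. Pax6 had 43 and 13 reads in GSI and 46 and 22 after washout, and did not pass both thresholds. The erythroid markers summed to 22.4 and 20.2 CPM in GSI and to 10.6 and 10.3 CPM after washout, where Gata1 fell by 1.26 and both globin genes had 0 reads. The fibroblast markers summed to 3.16 and 3.02 CPM in GSI and to 1.38 and 1.56 CPM after washout, where Col1a1 fell by 3.59 from 29 and 18 reads to 4 and 0. The B cell markers reached at most 0.548 CPM. Markers singled out here were named after their values were seen. The part of these markers in the members' values was not tested.

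**Figure D3:**
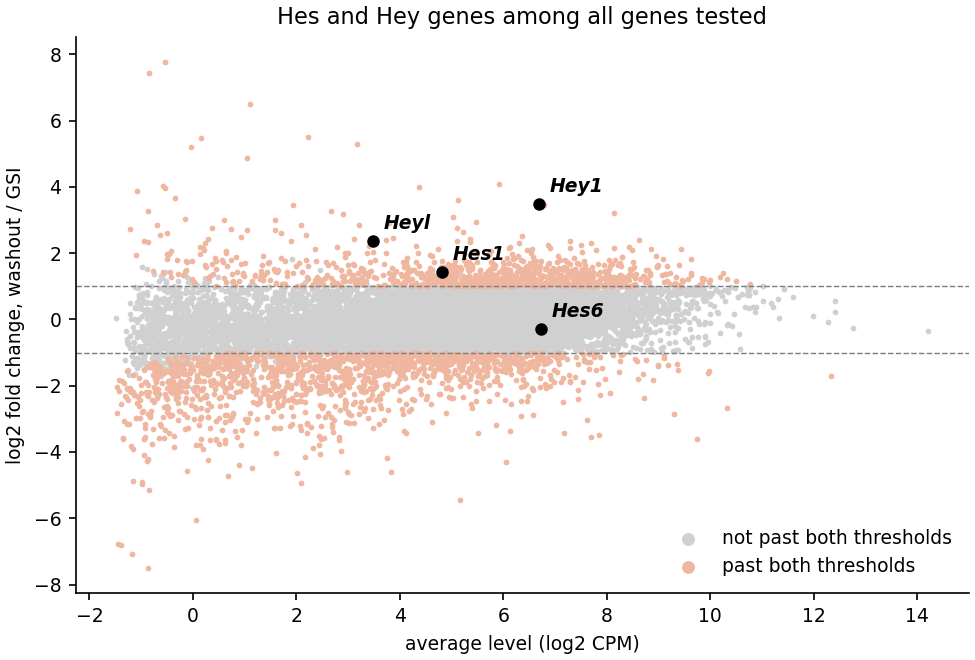
Log2 fold change of washout over GSI against the average level (log2 CPM) for the 12266 genes tested, with genes past both thresholds in orange, the others in grey, the 4 tested Hes and Hey genes in black, and dashed lines at log2 fold changes of 1 and -1. Hey1 at 3.47 and Heyl at 2.36 stand above most genes of their level, Hes1 at 1.42 lies above the dashed line at 1, and Hes6 at -0.29 lies within the grey band, a sign that flips when GC content and exon length are modelled.

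How the 4 members behaved across libraries was also set against every tested gene outside the family that averaged 1 log2 CPM or more. The measure was the Euclidean distance between centred log2 CPM values over the 4 libraries. The genes nearest to Hey1 were Arhgef10l (distance 0.347), the interleukin receptor gene Il2ra (0.357) and Adgrg1 (0.361). Il2ra was at 1.44 and 1.51 CPM in the GSI libraries and at 12.4 and 14.6 CPM after washout, a log2 fold change of 3.19 (SE 0.220, adjusted p = 0.000343 by edgeR's quasi-likelihood test). Nearest to Heyl were the neurofilament gene Nefh (0.0402), the integrin gene Itga9 (0.109) and Eif4ebp1 (0.137), which encodes a repressor of translation initiation. Nearest to Hes6 were Tiam1 (0.0184), Slc25a12 (0.0210) and Rest (0.0298), with log2 fold changes between -0.29 and -0.27. For Hes1 the nearest genes were Gm9199 (0.461), Slc25a47 (0.471) and Rdh13 (0.558). With 4 libraries in 2 conditions such likeness mostly reflects a similar fold change.

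Around the members, the genes within 250 kb were listed, a window chosen with these results known. Only symbols of the count table that matched 1 annotated gene were listed, so other genes may lie in these windows. Hey1 has 2 such genes, of which the 1 tested, Mrps28 at 135107 bp, rose by 1.73. Heyl has 10, of which 5 were tested and 1, Pabpc4 at 12476 bp, rose by 1.43. Of the 6 genes around Hes1, 3 were tested and 0 were called. The members with almost no reads have expressed neighbours. Hes5 lies 1752 bp from Pank4 (average log2 CPM 5.73), and Hes3 lies 5565 bp from Icmt (average log2 CPM 6.77). Of the tested neighbours, Hes7 had 14 with 2 rises and 4 falls, Hes2 had 16 with 1 rise and 1 fall, and Hey2 had 3 with 0 calls. Hes3 (12 tested), Hes5 (6 tested) and Hes6 (10 tested) had 0 rises and 1 fall each. Among all genes tested 7.74% rose and 11.7% fell, and these small numbers are not a result about the loci. Hes2 and Hes3 lie 123502 bp apart on chromosome 4, with Acot7 between them, so their windows share genes.

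Of 44 other Notch pathway genes, 40 were tested, 5 rose and 6 fell past both thresholds, with a median log2 fold change of -0.36 against -0.0096 over all genes tested. Both counts lie near the shares of all genes tested (7.74% higher and 11.7% lower), so the calls past both thresholds give no result about the list. By the adjusted p alone 7 of the 40 were higher and 19 lower, beside 3315 higher and 3120 lower of 12266 genes tested. The source of these lower values was not tested. The largest rise was that of Dtx1, a ubiquitin ligase and Notch target, from 46.1 and 64.4 to 409.0 and 605.1 CPM (log2 fold change 3.20, SE 0.249, adjusted p = 0.000396 by edgeR's quasi-likelihood test). The feedback inhibitor Nrarp rose by 1.31 and the acetyltransferase Kat2a by 1.24. The other two rises, named after their values were seen, were those of the receptor Notch1 (1.14) and the Fringe gene Mfng (1.01). Notch1 was at 505.6 and 636.5 CPM in the GSI libraries and at 1184.3 and 1332.3 CPM after washout. The largest falls were those of the Fringe gene Lfng (fell by 2.36, from 24 and 17 reads to 4 and 4), the coactivator gene Maml2 (fell by 2.22) and Aph1b, a γ-secretase subunit (fell by 2.05).

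By role, the 4 receptors held 1 rise and 0 falls, and the 8 protease genes 0 rises and 2 falls, numbers too small to set against the shares of all genes. Of 5 ligands only Jag2 was tested (log2 fold change -0.89, adjusted p = 0.0100 by edgeR's quasi-likelihood test, not past both thresholds). Dll1, Dll3, Dll4 and Jag1 had at most 18 reads in any library. Rbpj, whose protein carries NICD to its target genes, was at 75.7 and 67.5 CPM in GSI and at 77.0 and 64.5 CPM after washout. Its conditions overlapped, and its log2 fold change was -0.016 (SE 0.122, adjusted p = 0.924 by the same test). The 8 corepressor genes, which include Spen and Ncor1, held 0 rises and 0 falls, and the 7 genes of the coactivator complex held 1 rise and 2 falls.

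Of 16 corepressors, bHLH relatives, E proteins and Id inhibitors, with which Hes and Hey proteins work or are related, 11 were tested, 1 rose and 5 fell. Falls also outnumbered rises among all genes tested (11.7% against 7.74%). The median log2 fold change of the 11 genes was -0.59. Among the Groucho genes Tle6 fell by 3.40 (15.4 and 7.27 to 1.29 and 0.744 CPM), Tle2 fell by 2.62 and Aes, a short Groucho protein, fell by 1.53. The most abundant full-length Groucho gene, Tle3, was higher after washout without passing both thresholds, at 207.6 and 279.4 CPM in GSI and 363.0 and 412.7 CPM after washout (log2 fold change 0.67, SE 0.163, adjusted p = 0.0150 by edgeR's quasi-likelihood test). Of the Id inhibitors, which trap bHLH proteins off the DNA, Id1 rose by 1.55 (7.72 and 6.92 to 19.7 and 23.5 CPM) and Id3 fell by 1.96 (21.3 and 21.8 to 6.20 and 4.69 CPM). The relative Bhlhe40 fell by 1.14. Aes and Bhlhe40 were named after their values were seen. The E protein genes Tcf3, Tcf4 and Tcf12 did not pass both thresholds (0.49, -0.0061 and -0.14).

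**Figure D4:**
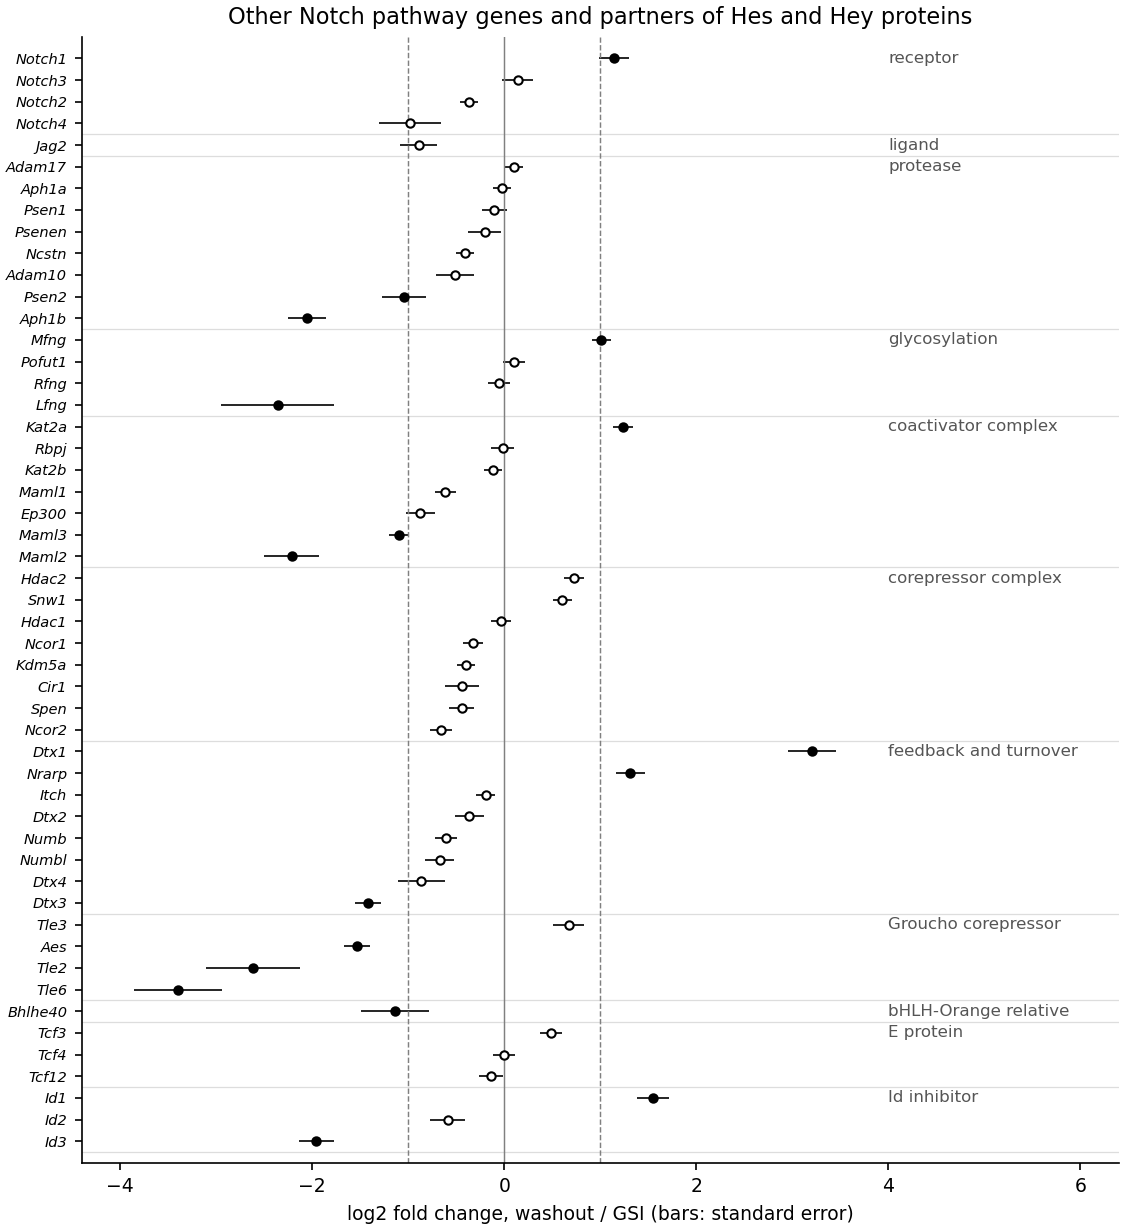
Log2 fold change of washout over GSI (points, with bars for 1 SE) for the 40 tested Notch pathway genes and the 11 tested partners and relatives, grouped by role, with filled points past both thresholds and dashed lines at 1 and -1. Dtx1 at 3.20 is the largest rise, Tle6 at -3.40 the largest fall, and Rbpj lies at -0.016.

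Of 11 genes known from elsewhere as targets repressed by Hes1, 5 were tested, 0 rose and 2 fell. The pro-apoptotic gene Bbc3 fell by 2.39 and the co-receptor gene Cd4 fell by 1.16. The deubiquitinase gene Cyld and the cell cycle inhibitor gene Cdkn1b did not pass both thresholds. Their log2 fold changes were -0.31 and -0.82 (adjusted p = 0.0517 and 0.00201 by edgeR's quasi-likelihood test). The median log2 fold change of the 5 genes was -0.87, against -0.0096 over all genes tested. By the adjusted p alone 4 were lower and 0 higher, beside 3120 lower and 3315 higher of 12266 genes tested. Neurog2, Neurog3, Dll1 (also in the pathway list), Cdkn1c and Cebpa had too few reads. Since 11.7% of all genes fell past both thresholds, a list of 5 tested genes says little about Hes1, and the part of Hes1 in these values was not tested.

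**Figure D5:**
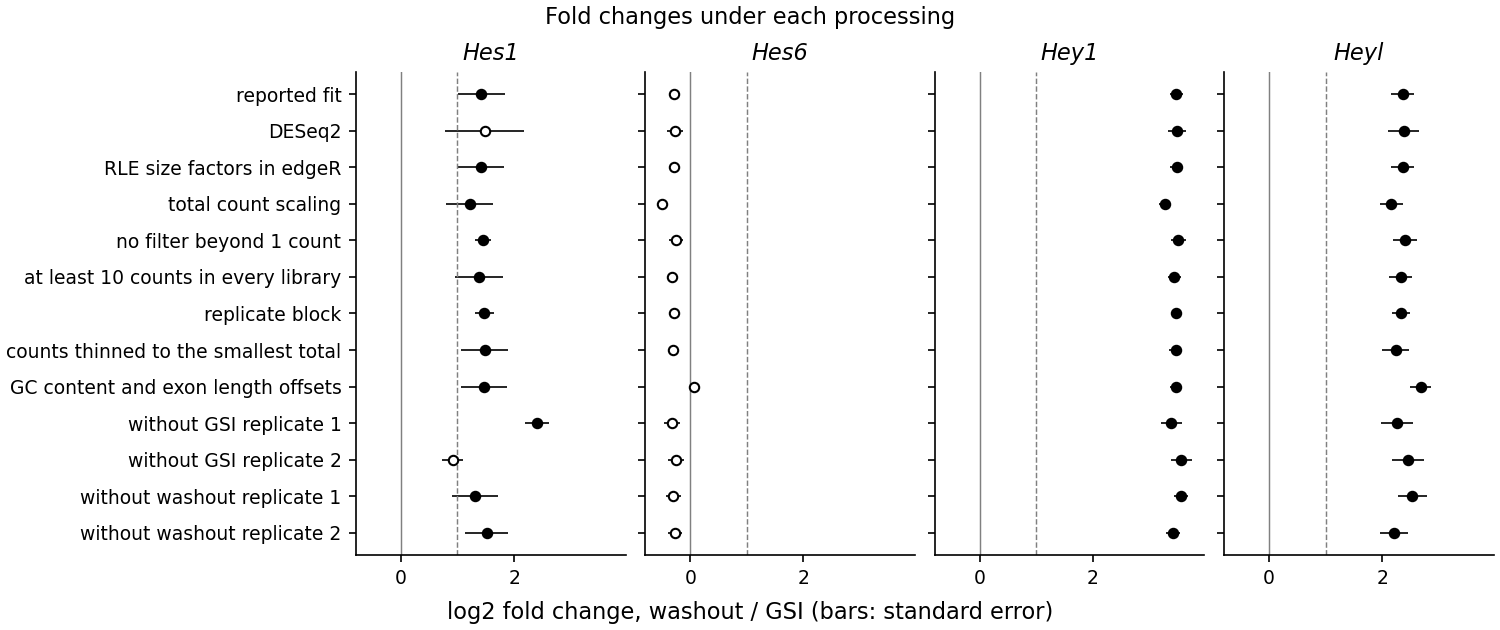
Log2 fold change of washout over GSI (points, with bars for 1 SE, the same axis in all panels) for Hes1, Hes6, Hey1 and Heyl in the reported fit and 12 alternatives, with filled points past both thresholds and a dashed line at 1. Hey1 and Heyl stay filled throughout, Hes1 moves between 0.92 and 2.41 with the GSI library left out, and Hes6 is never filled and reaches 0.064 when GC content and exon length are modelled.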

How the data were processed

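Gene expression in Beko cells was profiled by RNA-Seq, with 2 GSI and 2 washout libraries grouped by their labels. Per the methods of the study and the submitters' processing notes, the authors used trimGalore for trimming, HISAT2 2.2.1 for alignment to mm9 and summarizeOverlaps with the iGenomes gene models for counting. They detected deregulated genes with DESeq2. They deposited raw counts, 1 column per library, and all columns were used. The strand setting was not given in the sources used here.

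Counts were analysed in R 4.3.3 with edgeR 4.0.16 (filterByExpr, TMM, glmQLFit and glmQLFTest, no covariates, biological coefficient of variation 0.121). Benjamini-Hochberg adjustment was over 12266 genes. The thresholds were those of the study's methods, where they were used with DESeq2. CPM values are TMM-scaled, and SE is the log2 fold change over the square root of F. The limit of 3 counts was fixed, and it was turned into CPM by the TMM-scaled total of each library over the genes tested. Gene positions and exon lengths came from GENCODE vM1 on mm9, in which 20641 of the 24391 symbols matched 1 gene. The replicates of a condition differed by more than sampling noise (chi-square per degree of freedom 17.2 in GSI and 27.7 after washout).

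The members and all gene lists were chosen with earlier results of these data known, and lists of partners and Hes1 targets came from general knowledge. Some genes of the latter list are not reported here by name. By rule the text names all members, up to 3 rises and 3 falls per list, and the 3 nearest patterns among genes averaging 1 log2 CPM or more. Other genes of the lists, markers and neighbours were named after their values were seen. Alternatives were DESeq2 1.42.0, RLE or total-count scaling, both filters, a replicate block, thinned counts, GC content and exon length offsets, glmTreat, the adjusted p alone and leaving out each library. The scripts were tested on simulated data.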

Additional observations from a re-analysis of the deposited data

How the results depend on the processing

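Of 192 alternatives over 14 results, 170 kept direction and side of the threshold, or a count within 1.5 times, 3 were weaker, 18 counts moved and 1 value reversed. Hey1 (log2 fold change 3.27 to 3.51 over 9 alternatives, 3.38 to 3.56 with 1 library left out) and Heyl (2.16 to 2.68, and 2.2 to 2.53) stayed past both thresholds throughout. Hes1 was at 1.48 in DESeq2 (adjusted p = 0.0732) and at 1.42 in edgeR's glmTreat against a log2 fold change of 1 (adjusted p = 0.470), with adjusted p between 4.46e-21 and 0.470 over its 9 alternatives, and ranged from 0.92 (without GSI replicate 2) to 2.41 (without GSI replicate 1) with 1 library left out, so that 2 to 3 members were higher. Hes6 reversed to 0.064 with GC content and exon length offsets (10962 genes, 89.4% of those tested; adjusted p = 0.541 in edgeR, and 0.00309 to 1 over its 9 alternatives), and with 1 library left out it ranged from -0.32 to -0.25, with adjusted p from 0.0785 to 0.203. The causes were not tested.

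Total-count scaling gave 586 genes higher, 3 pathway genes higher and 10 lower, and 4 Hes1 targets lower. By glmTreat 308 genes were higher and 501 lower, with 1 pathway gene higher and 3 lower, 3 partners lower and 1 target lower. By the adjusted p alone 3315 genes were higher and 3120 lower, with 1 member and 19 pathway genes lower, 3 partners higher and 4 targets lower. With GC content and exon length offsets 2 partners were higher. Pathway rises numbered 3 to 5 with 1 library left out, and 3 without GSI replicate 1. With the replicate number as a block Hes1 was at 1.47, Hey1 at 3.47, Heyl at 2.33 and Hes6 at -0.29, 981 genes were higher and 1576 lower, and no call of a member changed. Same-numbered libraries deviated together (correlation 0.497 over genes), but there are only 2 pairs and no label says that a number marks a shared culture. Whether the libraries were paired is therefore not known.

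With a library left out, the lone library of that condition is assumed to vary like the others. Fold changes of genes near 3 counts, among them 5 members, could not be judged at these depths, and the shallower replicate 2 limits both conditions.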
